A study of Mus musculus with 656 samples.

Results

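Aminoacyl-tRNA synthetases are the enzymes that load each amino acid onto its transfer RNA. The 36 genes described here come from a list of symbols, 20 of them for cytosolic enzymes and 16 for mitochondrial enzymes, whose symbols end in 2. A row of the count table belongs to the set when its Ensembl identifier maps to one of these symbols, and an older symbol such as Gars stands for the same gene as its newer name with a final 1. All 36 were found among the 22070 genes of the table, and all 36 were among the 10766 genes with enough counts to be tested.

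The enzymes carry out the step that matches the genetic code to amino acids, and cells need them in proportion to their protein synthesis. Cytosolic enzymes serve ribosomes of the cytoplasm and mitochondrial ones serve the separate mitochondrial ribosomes, although Gars and Kars each encode both forms. When amino acids run short or the endoplasmic reticulum is stressed, the transcription factor ATF4 is known to raise many cytosolic synthetase genes together with genes of amino acid synthesis and transport. Wars is also known as a gene induced by interferon gamma.

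The RNA came from 3T3 cells, an established mouse fibroblast line, and was read by TagSeq, which counts fragments near the 3′ ends of polyadenylated transcripts. Cells were first kept for 1 hour with SC-514, which inhibits the NF-κB-activating kinase IKKβ, and were then stimulated with 1 of 2 inflammatory cytokines. The design crossed 4 SC-514 concentrations (0, 25, 50 and 100 µM), 2 stimulus labels (IL-1β at 1 ng/ml and TNF-α at 10 ng/ml) and 5 times (15, 30, 60, 120 and 360 min), and 1 further group had neither stimulus nor inhibitor. Each of the 41 groups has 4 libraries. The labels describe no group with SC-514 alone, no unstimulated group at a later time and no vehicle for the 0 µM groups. They also contradict each other on which name prefix stands for which cytokine. The stimulus label and the sample description were followed, so "labelled IL-1β" and "labelled TNF-α" are meant throughout, and name prefix and stimulus cannot be told apart.

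Library totals were 928906 to 2469454 counts in 162 libraries and 3839 and 12191 in the other 2, which are number 1 of TNF-α 50 µM 120 min and number 1 of IL-1β 50 µM 30 min. Number 1 of IL-1β 100 µM had 14634 detected genes at 120 min and 15303 at 360 min. The other libraries of those groups had 13198 to 13350 and 13170 to 13529. Member calls for 100 against 0 µM in these groups that were lost without those 2 libraries are named. In the 162 libraries the cytosolic synthetases held 4358 to 12622 counts (0.442 to 0.586% of a library) and the mitochondrial ones 414 to 1229 (0.0380 to 0.0540%). Levels are TMM-scaled CPM, a gene's counts relative to the size of its library, on which 3 counts amount to 1.18 to 3.41 CPM, and they are compared only within a gene. Over those libraries the fibroblast markers, of which 8 of 8 were tested, summed to 5057 to 8605 CPM, and 2 of 14 markers of myeloid, lymphoid, endothelial, epithelial and glial cells had enough counts to be tested, with a sum over the 12 found of 8.29 to 56.5 CPM. The fibroblast markers moved with the conditions. For example, 7 of 8 were lower at 360 min of IL-1β and 7 of 8 with 100 µM SC-514 at 360 min of TNF-α. Of all genes 9.4% and 15.4% were called lower there. The part of these marker changes in the results was not tested. In bulk RNA fewer cells and less RNA per cell cannot be told apart. Whether the libraries of a group are separate cultures is not stated in the labels. The spread between libraries, which may be technical, is therefore all that the p-values measure. A gene is said to have risen or fallen, or is called, when its adjusted p was under 0.05 in the edgeR quasi-likelihood test with Benjamini-Hochberg adjustment over all genes tested.

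The first question was how the synthetases differed between each stimulus without inhibitor and the unstimulated group. Early calls were few among all genes. No member was called at 15 min under IL-1β or TNF-α, where 0.167% and 0.186% of all genes were. None was called at 60 min, where 3.36% and 5.41% were. With shares this low, the lack of a call does not set the members apart from other genes. In these 4 comparisons and at 30 min of TNF-α, which also had none, 1 to 6 of 36 members had an unadjusted p under 0.05 in edgeR and 0 to 3 in DESeq2, which called none there either. Late cytosolic synthetases rose by small amounts, 6 of 20 under IL-1β at 360 min, 5 of 20 under TNF-α at 120 min and 4 of 20 under TNF-α at 360 min, and none fell. The share of all genes called higher in those comparisons was 12.3%, 9.14% and 3.62%, against 30%, 25% and 20% of the cytosolic members. Small differences are harder to call on few counts, and the mitochondrial members have fewer counts than the cytosolic ones. The part of counts in these shares and those below, also in the share of all genes, was not tested. Calls for mitochondrial members under a stimulus were 1 higher at 30 min of IL-1β and 2 lower at 120 min of IL-1β, and none for TNF-α. These 10 comparisons share the same 4 unstimulated libraries. That group has its own name prefix and no counterpart at later times, so stimulus, time and prefix cannot be told apart.

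**Figure D1:**
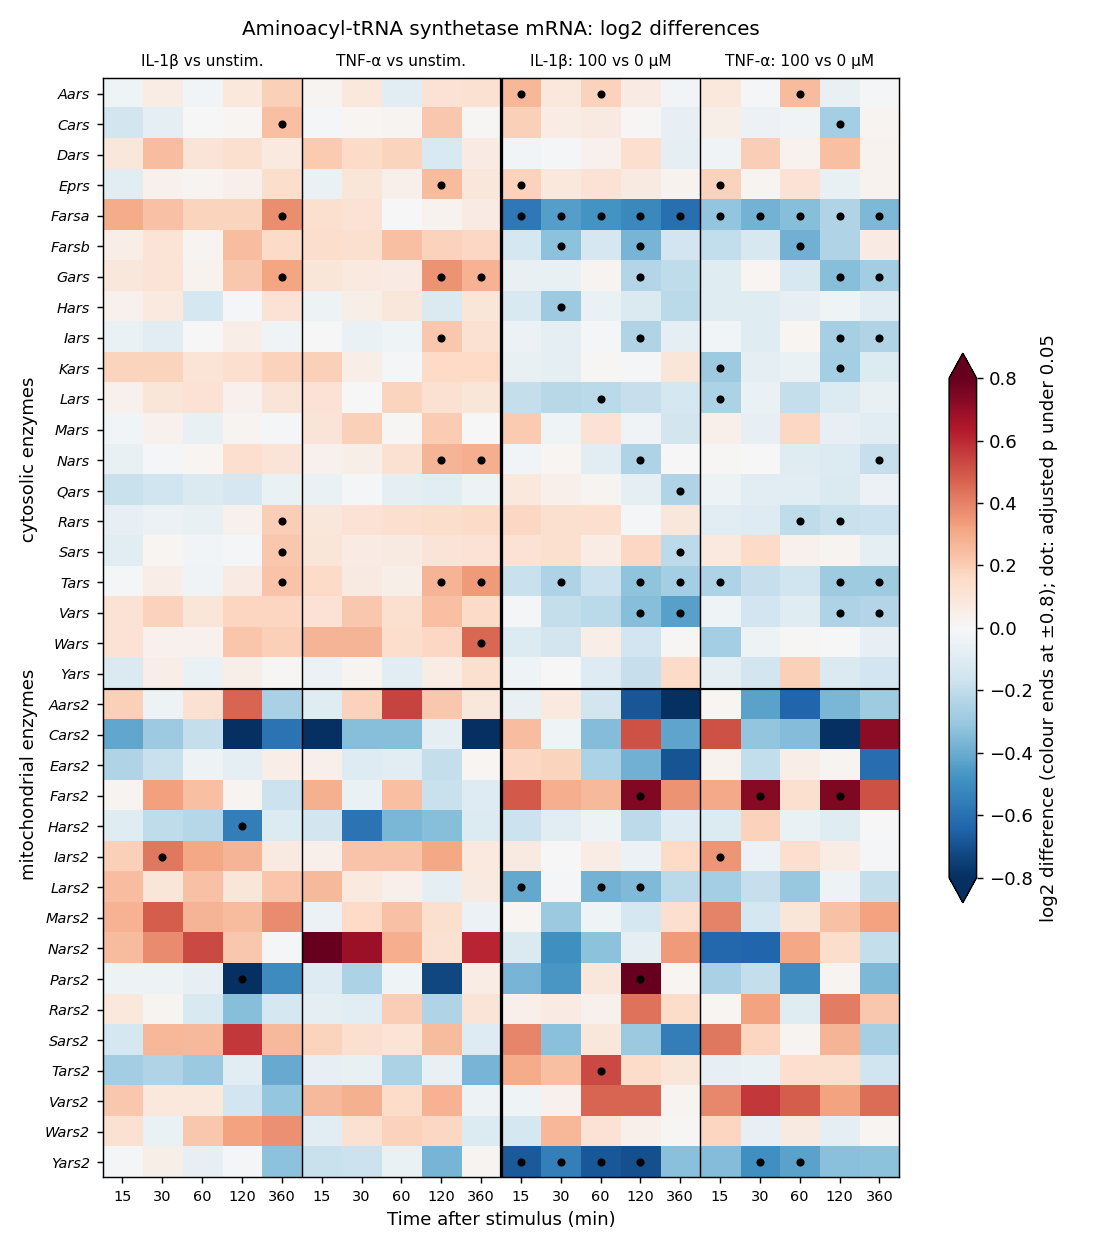
The log2 difference of each of the 36 members (rows; cytosolic above the black line, mitochondrial below) in 20 comparisons (columns, by minutes after stimulus), from blue for lower to red for higher, with a black dot where the adjusted p was under 0.05. Dots on red appear among the cytosolic members at 120 and 360 min of stimulus, and the Farsa row is blue with a dot in all 10 inhibitor comparisons.

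Gars, the glycyl-tRNA synthetase (chromosome 6, 55038007 to 55079500, plus strand, GRCm38), stood at 349, 449, 418 and 451 CPM in the unstimulated libraries and at 508, 590, 516 and 526 CPM after 120 min of TNF-α. Every TNF-α library was above every unstimulated one. The rise was 0.36 ± 0.08 on the log2 scale (SE, n = 4 against 4; adjusted p = 5.5e-04). Gars was also higher at 360 min of TNF-α, at 492 to 514 CPM (log2 difference 0.28, adjusted p = 0.028). Under IL-1β at 360 min its libraries had 438, 543, 549 and 542 CPM, a rise of 0.32 (adjusted p = 0.0022), with the library at 438 CPM inside the unstimulated range.

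Tars, the threonyl-tRNA synthetase (chromosome 15, 11382301 to 11399665, minus strand), had 323, 316, 337 and 360 CPM without stimulus and 434, 415, 421 and 424 CPM after 360 min of TNF-α. The groups did not overlap, and the rise was 0.34 ± 0.07 (adjusted p = 3.7e-04). It rose by 0.27 at 120 min of TNF-α (adjusted p = 0.0033) and by 0.23 at 360 min of IL-1β, where its 4 libraries had 372, 420, 403 and 373 CPM (adjusted p = 0.012). Tars and Gars were the members called in all 3 of these late comparisons.

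Nars, the asparaginyl-tRNA synthetase, rose in both late TNF-α comparisons. Its libraries had 653, 691, 692 and 727 CPM without stimulus and 854, 826, 852 and 849 CPM at 360 min of TNF-α, with no overlap (log2 difference 0.29 ± 0.07, adjusted p = 9.1e-04). The rise at 120 min was 0.27 (adjusted p = 7.6e-04). The difference for Nars at 360 min of IL-1β was 0.10, short of the threshold.

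Wars, the tryptophanyl-tRNA synthetase, had the widest late rise among cytosolic members, in 1 comparison. It had 85.2, 74.3, 70.7 and 78.2 CPM without stimulus and 117, 101, 89.3 and 117 CPM at 360 min of TNF-α. The groups did not overlap (log2 difference 0.46 ± 0.12, adjusted p = 0.0053). Wars had 77.9 to 92.4 CPM at 360 min of IL-1β, with a difference of 0.19 (adjusted p = 0.28). Among 9 interferon-inducible genes, 3 rose at 120 min and 1 at 360 min of TNF-α (all genes 9.14% and 3.62%).

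Farsa encodes the alpha subunit of the cytosolic phenylalanyl-tRNA synthetase (chromosome 8, 84856989 to 84869257, plus strand). It had 150, 126, 135 and 133 CPM without stimulus and 167, 173, 181 and 185 CPM at 360 min of IL-1β. All stimulated libraries were higher (log2 difference 0.37 ± 0.09, adjusted p = 7.8e-04). At 360 min of TNF-α Farsa had 132 to 152 CPM and did not pass the threshold (difference 0.07). Farsa was higher under IL-1β than under TNF-α in the F test over the 5 times without inhibitor, by 0.18 on average (adjusted p = 0.012), with differences of 0.12 to 0.31 at the single times. Nars and Rars, the arginyl-tRNA synthetase, were also called in that test (adjusted p = 0.041 and 0.018), with average differences of -0.12 and -0.11. Such an F test asks whether any of the 5 times differs and does not test a direction. The test called 9.56% of all genes and those 3 of 36 members. DESeq2 called 0 of 36 (5 with an unadjusted p under 0.05), and Farsa also lost its call without the libraries numbered 3 or 4. Nars and Rars were each kept in 5 of 10 other settings, and lost without the filter and without the libraries of 3 of the 4 numbers.

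Eprs and Iars are large enzymes of the multi-synthetase complex, Eprs with glutamyl and prolyl activity and Iars with isoleucyl activity. Eprs had 639, 674, 642 and 621 CPM without stimulus and 766, 751, 757 and 790 CPM at 120 min of TNF-α (log2 difference 0.25 ± 0.06, adjusted p = 6.6e-04). Iars rose by 0.22 in the same comparison (adjusted p = 0.027). The libraries of both genes were separated from the unstimulated ones there, and neither gene was called at 360 min. Of the 8 enzymes in the complex, 2 rose at 120 min of TNF-α and 1, Rars (difference 0.20), at 360 min of IL-1β. The shares of all genes called higher there were 9.14% and 12.3%, and 1 of 8 is close to the second.

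Sars, the seryl-tRNA synthetase, had 363, 429, 424 and 422 CPM without stimulus and 461, 474, 504 and 462 CPM at 360 min of IL-1β, without overlap (log2 difference 0.22 ± 0.08, adjusted p = 0.035). Cars, the cysteinyl-tRNA synthetase, rose by 0.24 there (adjusted p = 0.031), with overlapping groups. Aars, the alanyl-tRNA synthetase, had a difference of 0.19 at 360 min of IL-1β that missed the threshold (adjusted p = 0.057). Yars, the tyrosyl-tRNA synthetase, had 86.6, 83.8, 117 and 87.1 CPM without stimulus, 99.5, 109, 87.0 and 80.2 CPM at 360 min of IL-1β and 105, 107, 103 and 94.5 CPM at 360 min of TNF-α, so its groups overlapped. The median difference over the 20 cytosolic members was 0.16 at 360 min of IL-1β, 0.16 at 120 min and 0.12 at 360 min of TNF-α, beside -0.01, -0.02 and 0.00 over all genes tested, and those of the 16 mitochondrial members were -0.13, -0.07 and -0.01.

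The late rises depended in part on how libraries were scaled. With RLE size factors over all 164 libraries, 2, 4 and 3 cytosolic members were called higher at 360 min of IL-1β, 120 min and 360 min of TNF-α in place of 6, 5 and 4, and the cytosolic medians were 0.10, 0.12 and 0.07. Among all genes called in these 3 comparisons the share that was higher was 56.6, 64.2 and 66.8% with TMM and 42.7, 50.8 and 49.2% with RLE. With RLE factors computed without the 2 shallow libraries the counts were 6, 5 and 4 again. Tars (adjusted p = 0.077), Sars, Cars and Rars at 360 min of IL-1β, Iars at 120 min of TNF-α (0.081) and Gars at 360 min of TNF-α (0.063) were the calls lost with RLE over all libraries, and DESeq2 lost the same 6. DESeq2 took size factors of the RLE kind over all 164 libraries and was not run without the 2 shallow ones. Its losses are therefore not a separate check of the scaling. Of these 6, Sars and Gars were also lost without the libraries of any 1 number. Cars and Iars were lost without those of 3 of the 4 numbers, and Tars and Rars without those numbered 2 or 3. Sars, Cars, Rars and Iars were lost without the filter on low counts. Gars at 360 min of IL-1β was lost without the libraries numbered 3 (adjusted p = 0.070) and Wars without those numbered 4 (adjusted p = 0.086). Farsa at 360 min of IL-1β, Eprs, Gars, Nars and Tars at 120 min of TNF-α, and Nars and Tars at 360 min of TNF-α were called under every setting run.

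At 120 min of IL-1β no cytosolic member was called, where 8.17% of all genes were higher and 4.36% lower. In that comparison Hars2, the mitochondrial histidyl-tRNA synthetase, fell from 33.2, 39.8, 27.8 and 31.4 CPM to 22.3, 20.5, 25.2 and 21.8 CPM, with no overlap (log2 difference -0.56 ± 0.19, adjusted p = 0.032). Pars2, the mitochondrial prolyl enzyme, was called lower on 31 counts in the unstimulated group against 12, and its libraries overlapped, at 4.32 to 7.26 CPM against 0.682 to 4.78 CPM. At 30 min, where 0.957% of all genes were called under IL-1β and 0.659% under TNF-α, Iars2, the mitochondrial isoleucyl enzyme, rose from 69.1 to 79.5 CPM to 91.4 to 111 CPM under IL-1β (log2 difference 0.42 ± 0.12, adjusted p = 0.048). The 3′ end of Iars2 lies opposite to that of Rab3gap2, and whether counting used strand is not given in the sources used here. In the remaining comparisons with shares called lower of 9.4%, 5.11% and 1.8% of all genes (IL-1β 360 min, TNF-α 120 min and TNF-α 360 min) no member fell. The calls of Hars2 and Iars2 were lost with DESeq2 (adjusted p = 0.056 and 0.15), and those of Hars2, Iars2 and Pars2 without the libraries of 3 or more of the 4 numbers.

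**Figure D2:**
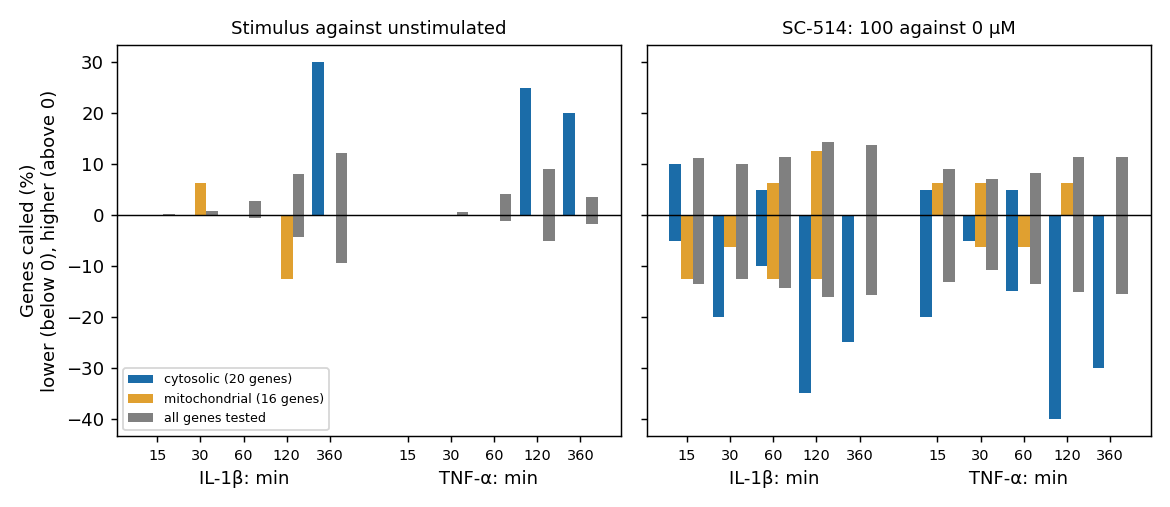
Share of genes called higher (bars above 0) and lower (bars below 0) among 20 cytosolic members, 16 mitochondrial members and all 10766 genes tested, for 10 stimulus comparisons (left) and 10 comparisons of 100 with 0 µM SC-514 (right), by minutes after stimulus. The cytosolic bars reach 30% higher at 360 min of IL-1β and 40% lower at 120 min of TNF-α with inhibitor.

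The wider set of genes that ATF4 is known to govern was described beside the synthetases. Of 28 tested genes of amino acid synthesis, transport and stress, 15 were called higher and 1 lower at 360 min of IL-1β, 17 rose and 2 fell at 120 min of TNF-α, and 12 rose and 0 fell at 360 min of TNF-α, each against the same unstimulated libraries (14 and 1, 13 and 2, and 10 and 0 with RLE size factors). Of all genes 12.3%, 9.14% and 3.62% were called higher in these 3 comparisons and 9.4%, 5.11% and 1.8% lower. Atf4 itself rose by 0.44, 0.59 and 0.38 in these 3 comparisons, and Asns, which makes asparagine, by 0.29, 0.25 and 0.31. Ddit3, a stress transcription factor, and Trib3, its pseudokinase target, were called in the TNF-α 120 min comparison, with rises of 0.63 and 0.61. The list had 4 rises at 60 min of IL-1β and 5 at 60 min of TNF-α, where no synthetase was called. Of all genes 3.36% and 5.41% were called there in either direction. Among 13 synthetases often described as ATF4 targets, 4, 5 and 4 rose at 360 min of IL-1β, 120 min of TNF-α and 360 min of TNF-α (1, 4 and 3 with RLE size factors).

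Promoters were searched for a site of ATF4 and 3 other motifs. RefSeq promoter sequences (GRCm38.p6, 250 bases before to 50 after the gene start) were matched for 27 of the 36 members, 13 cytosolic and 14 mitochondrial, and Cars, Hars, Hars2, Lars, Nars, Pars2, Rars, Vars and Wars had no entry. The CARE element (TGATGNAAN, searched on both strands), to which ATF4 with C/EBP proteins is known to bind, was found in 5 of 13 cytosolic and 0 of 14 mitochondrial promoters, and in 3.95% of all 32851 promoters. The 5 genes were Aars, Gars, Iars, Tars and Yars. Gars, Tars and Iars were called at 120 min of TNF-α, Aars and Yars in none of the 3 late comparisons. Of the other members that rose in those comparisons, Eprs, Sars and Farsa have a promoter entry without the element, and Cars, Nars, Rars and Wars have no entry. Starts are those of RefSeq, which differ by some bases from the GENCODE gene ends given with each gene. The windows show where the element lies in the 5 genes that hold it, have it in capitals, are written in the direction of the gene, and run from 26 bases before the element to at most the gene start, or 10 bases to either side where the element lies after the start.
Gars, chr6:55037944-55038000, plus strand: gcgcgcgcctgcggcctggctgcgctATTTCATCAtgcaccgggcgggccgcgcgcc
Tars, chr15:11399659-11399700, minus strand: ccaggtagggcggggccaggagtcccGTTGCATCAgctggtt
Aars, chr8:111033703-111033763, plus strand: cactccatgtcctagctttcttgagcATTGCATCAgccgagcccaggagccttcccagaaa
Aars, chr8:111033840-111033868, plus strand: agcgggtcacTTTTCATCAgagcgctctg
Iars, chr13:49682126-49682154, plus strand: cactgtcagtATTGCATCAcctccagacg
Yars, chr4:129189896-129189924, plus strand: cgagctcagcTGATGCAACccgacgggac
The element began 31 bases before the start in Gars and 16 before it in Tars. The E-box CACGTG was present in 5 promoters (Aars, Ears2, Farsb, Iars and Tars; 7.15% of all promoters), a 10-base NF-κB motif in 2 (Iars and Iars2; 8.46%) and the interferon gamma-activated site TTCNNNGAA in 3 (Aars, Kars and Nars2; 8.3%). Some matches can overlap one another, and a match describes letters in the window only. Farsa, called in all 10 inhibitor comparisons as described next, held none of the 4 motifs. The 250 bases before its start are shown beside those of Gars for that contrast.
Gars, chr6:55037751-55038000, plus strand: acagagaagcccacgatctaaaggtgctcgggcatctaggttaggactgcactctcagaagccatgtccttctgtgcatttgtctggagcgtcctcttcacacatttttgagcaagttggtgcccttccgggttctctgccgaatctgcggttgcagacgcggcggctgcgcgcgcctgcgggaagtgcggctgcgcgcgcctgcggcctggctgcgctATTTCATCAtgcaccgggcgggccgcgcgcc
Farsa, chr8:84856736-84856985, plus strand: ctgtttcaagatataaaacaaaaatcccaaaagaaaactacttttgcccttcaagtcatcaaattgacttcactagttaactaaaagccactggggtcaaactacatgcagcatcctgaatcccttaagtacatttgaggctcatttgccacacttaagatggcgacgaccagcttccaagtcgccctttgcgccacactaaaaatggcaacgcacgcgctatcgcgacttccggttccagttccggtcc

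The second question was what 100 µM SC-514 did under each stimulus, set against 0 µM at the same time. The cytosolic synthetases that fell under the inhibitor at the late times were 7 of 20 at 120 min and 5 of 20 at 360 min of IL-1β, 8 of 20 at 120 min and 6 of 20 at 360 min of TNF-α, with no rise in these 4 comparisons. The shares of all genes called lower there were 16.2%, 15.7%, 15% and 15.4%, and those called higher were 14.3%, 13.9%, 11.5% and 11.4%. At 15, 30 and 60 min the cytosolic counts were 1, 4 and 2 lower under IL-1β (all genes 13.5%, 12.5% and 14.4%) and 4, 1 and 3 lower under TNF-α (all genes 13.2%, 10.8% and 13.6%). Rises at those times were 2, 0 and 1 under IL-1β (all genes 11.2%, 10% and 11.5%) and 1, 0 and 1 under TNF-α (all genes 8.99%, 7.12% and 8.32%). The median cytosolic difference was -0.13 and -0.11 at 120 and 360 min of IL-1β and -0.11 and -0.09 for TNF-α, beside medians of 0.03, 0.04, 0.03 and 0.02 over all genes. With RLE size factors over all libraries the median of all genes moved by 0.12 on the log2 scale at 360 min of TNF-α, the cytosolic medians were -0.10, -0.02, -0.04 and 0.04, so that the last changed sign, and 7, 3, 4 and 1 cytosolic members were called lower and 1 higher in each. The share of called genes that was higher, 46.9, 47.0, 43.3 and 42.4% with TMM, was 52.8, 63.6, 59.1 and 68.7% with RLE. With RLE factors computed without the 2 shallow libraries 7, 7, 8 and 7 cytosolic members were lower and 0 higher. Without the 2 libraries with more detected genes, 5 cytosolic members were lower at 120 min and 2 at 360 min of IL-1β. DESeq2, also with factors of the RLE kind over all libraries, called 5, 2, 2 and 0 cytosolic members lower in the 4 late comparisons. At 360 min of TNF-α the members it called were 1 cytosolic and 1 mitochondrial gene, both higher. At 15, 30 and 60 min RLE size factors gave 1, 4 and 1 lower under IL-1β and 0, 1 and 2 under TNF-α, and DESeq2 gave 1, 2 and 1 and 0, 1 and 0, so the 4 lower calls at 15 min of TNF-α were lost with both. The share of called genes that was higher moved from 45.4 to 59.4% at 15 min of IL-1β, and from 40.4, 39.8 and 37.9% to 60.9, 50.2 and 56.4% at 15, 30 and 60 min of TNF-α, between TMM and RLE.

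Farsa fell in all 10 of these comparisons, by differences of -0.24 to -0.60. It was lower in 10 of 10 under every setting run, and called in 8 with RLE size factors (not at 15 and 120 min of TNF-α) and in 6 with DESeq2. At 15 min of IL-1β its libraries had 163, 164, 163 and 180 CPM without inhibitor and 104, 110, 107 and 128 CPM with it (log2 difference -0.57 ± 0.09, adjusted p = 2.2e-07). At 360 min of IL-1β they had 167, 173, 181 and 185 CPM against 110, 128, 119 and 108 CPM (-0.60 ± 0.09, adjusted p = 5.3e-08). The groups were apart in both, and 3 of the 4 inhibitor libraries at 360 min lay below the unstimulated range of 126 to 150 CPM. Under TNF-α at 360 min Farsa fell from 151, 152, 132 and 136 CPM to 115, 109, 109 and 113 CPM (-0.36 ± 0.09, adjusted p = 0.0013). Farsb, the beta subunit of the same enzyme, was lower in 9 of 10 comparisons and called in 3, and in 1 with DESeq2. At 60 min of TNF-α it fell from 122, 105, 110 and 139 CPM to 84.0, 93.4, 93.4 and 93.6 CPM (-0.38 ± 0.11, adjusted p = 0.0046). The 3′ end of Farsb lies opposite to Sgpp2, so its reads could be shared.

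**Figure D3:**
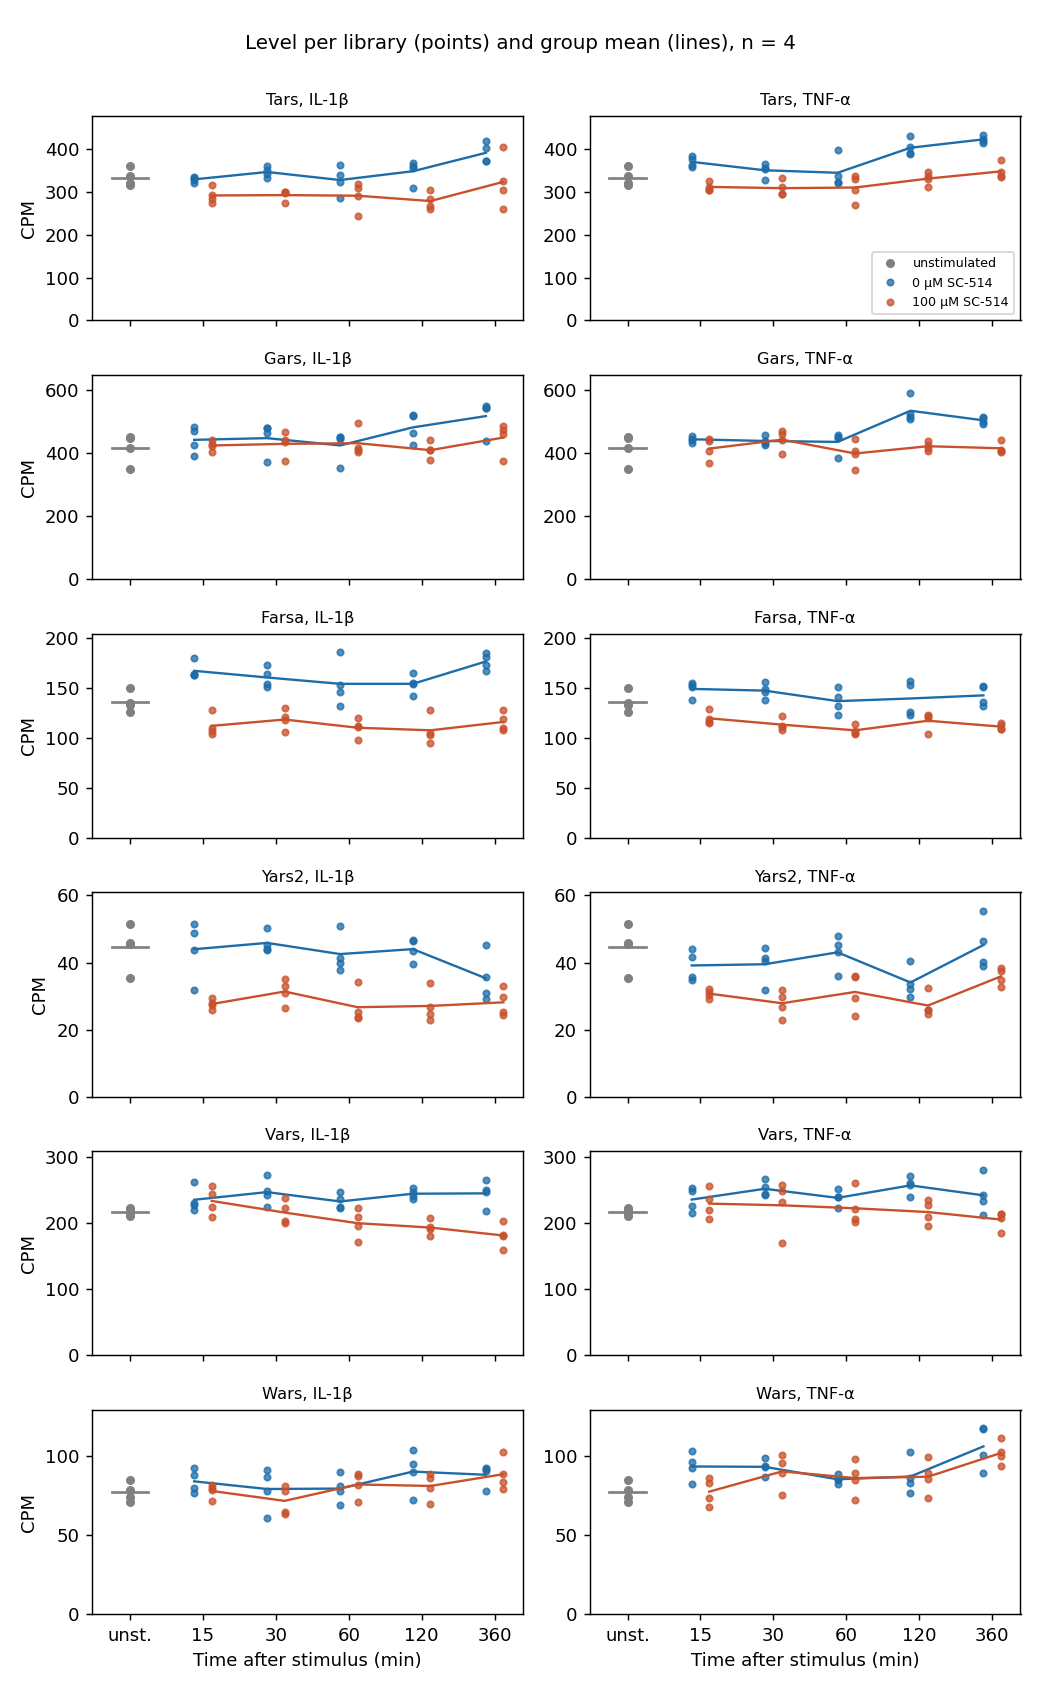
CPM of 6 members in every library (points) with group means (lines, n = 4) without stimulus (grey), with stimulus and 0 µM SC-514 (blue) and with stimulus and 100 µM (orange), by minutes after stimulus, for libraries labelled IL-1β (left) and TNF-α (right). Farsa and Yars2 lie lower with inhibitor from 15 min on, while Gars separates at 120 and 360 min of TNF-α, where Wars overlaps.

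Tars was lower in 10 of 10 comparisons and called in 6, or in 10 with the library number in the fit as a block. With RLE size factors it was also lower in 10, and called in 4. The call of Tars at 360 min of IL-1β (-0.27, adjusted p = 0.0019) was lost with DESeq2 and without the 2 libraries with more detected genes. At 120 min of IL-1β it fell from 309, 357, 362 and 369 CPM to 267, 305, 284 and 262 CPM, without overlap (-0.32 ± 0.08, adjusted p = 3.2e-04). At 360 min of TNF-α it fell from 434, 415, 421 and 424 CPM to 347, 338, 375 and 335 CPM (-0.28 ± 0.07, adjusted p = 9.0e-04), with 1 of the 4 inhibitor libraries above the unstimulated range of 316 to 360 CPM. Gars fell at both late times of TNF-α, at 120 min to 440, 426, 406 and 416 CPM from the 508 to 590 CPM given above (-0.34 ± 0.08, adjusted p = 5.3e-04). These 4 inhibitor libraries of Gars were inside its unstimulated range of 349 to 451 CPM. The call of Gars at 120 min of IL-1β (-0.23, adjusted p = 0.025) had overlapping groups and was lost in 5 of 11 other settings, 1 of them without the 2 libraries with more detected genes. The stimulus and inhibitor comparisons share the libraries with stimulus alone, so the rise and the fall of one gene are not independent measurements. The calls of Tars and Gars at 360 min of TNF-α were lost with RLE size factors over all libraries (-0.16, adjusted p = 0.070, and -0.15, adjusted p = 0.12) and kept with RLE factors without the 2 shallow ones (-0.29 each).

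Vars, the valyl-tRNA synthetase, was lower in 10 of 10 comparisons (8 of 10 with RLE size factors or DESeq2) and called in 4, all at 120 or 360 min. With the library number in the fit as a block Vars had more calls. At 360 min of IL-1β it fell from 218, 247, 264 and 250 CPM to 159, 183, 181 and 202 CPM (-0.44 ± 0.09, adjusted p = 6.6e-05). Iars fell in 3 late comparisons, at 120 min of TNF-α from 284, 290, 260 and 270 CPM to 235, 212, 228 and 243 CPM (-0.26 ± 0.07, adjusted p = 0.0020). The call of Iars at 120 min of IL-1β (-0.24, adjusted p = 0.0069) was lost without the 2 libraries with more detected genes. It was also lost without the libraries numbered 1 and with DESeq2. Pooled over the last 500 bases of each protein-coding Iars transcript, 9.89% of the 50-base words also occur in Gm4849. Nars fell at 360 min of TNF-α to 747, 714, 749 and 761 CPM, below all 4 libraries with TNF-α alone and with 3 of 4 above the highest unstimulated one (-0.19 ± 0.06, adjusted p = 0.020), and at 120 min of IL-1β (-0.24, adjusted p = 0.0019). With RLE size factors over all libraries the differences of Nars and Iars at 360 min of TNF-α were -0.06 (adjusted p = 0.46) and -0.12 (adjusted p = 0.18). Both Vars calls under IL-1β held under every setting run.

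Single calls completed the cytosolic members. Lars, the leucyl enzyme, and Hars, the histidyl enzyme, were lower in 10 of 10 comparisons, with 2 calls and 1, but in 9 and 7 of 10 with RLE size factors or DESeq2. With the library number in the fit as a block Lars had more calls. Kars (lysyl) and Rars had 2 calls lower each, Cars, Qars (glutaminyl) and Sars 1 each. DESeq2 called none of these lower calls, and Qars and Sars, both at 360 min of IL-1β, were also lost without the 2 libraries with more detected genes. Dars (aspartyl), Mars (methionyl), Wars and Yars had no call in any of the 10. The Mars 3′ end lies opposite to that of Ddit3, which rose under the inhibitor, and Mars had differences of -0.14 to 0.21. Wars at 360 min of TNF-α had 99.8, 93.5, 112 and 103 CPM with the inhibitor, inside the range with TNF-α alone (difference -0.06, 95% interval -0.28 to 0.15).

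Aars and Eprs moved the other way at early times. Aars had 190, 227, 195 and 218 CPM at 15 min of IL-1β and 245, 258, 242 and 249 CPM with 100 µM, a rise without overlap (0.26 ± 0.07, adjusted p = 0.0042), and it was called higher in 3 comparisons. It shares 50.0% of the 50-base words of its last 500 transcript bases with Exosc6, so its reads could be split or shared. Eprs rose at 15 min in both stimuli, by 0.19 under IL-1β (adjusted p = 0.012) and 0.18 under TNF-α (adjusted p = 0.015). The Aars call at 15 min of IL-1β held under every setting run, and both Eprs calls were lost without the filter on low counts.

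Yars2 had the most calls among mitochondrial members. Yars2, the mitochondrial tyrosyl enzyme (chromosome 16, 16302965 to 16309640, plus strand), was lower in 10 of 10 comparisons, by -0.33 to -0.70, and called in 6. At 15 min of IL-1β it had 43.9, 31.9, 48.8 and 51.4 CPM without and 27.9, 25.9, 29.3 and 27.4 CPM with inhibitor, all lower (-0.67 ± 0.16, adjusted p = 7.3e-04). At 60 min of TNF-α it fell from 43.1, 35.9, 47.8 and 45.3 CPM to 29.5, 23.9, 35.9 and 35.6 CPM (-0.43 ± 0.16, adjusted p = 0.039), a call kept in 2 of 10 other settings and lost, among others, without the libraries of any 1 number and with RLE size factors (adjusted p = 0.091). Its calls at 15, 60 and 120 min of IL-1β held under every setting run. Lars2, the mitochondrial leucyl enzyme, was lower in 10 of 10 (8 of 10 with RLE size factors or DESeq2) and called at 15, 60 and 120 min of IL-1β, with DESeq2 in none. It fell from 186, 184, 205 and 192 CPM to 151, 126, 134 and 165 CPM at 15 min (-0.41 ± 0.13, adjusted p = 0.013).

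Fars2, the mitochondrial phenylalanyl enzyme, was higher in 10 of 10 comparisons, also with RLE size factors, and called in 3, the opposite direction to Farsa and Farsb. It was higher in 9 of 10 without the libraries numbered 3 or 4, and called in 0 without those numbered 1. At 120 min of TNF-α it rose from 10.5, 20.8, 14.5 and 10.9 CPM to 27.2, 24.6, 20.8 and 21.8 CPM (0.75 ± 0.22, adjusted p = 0.0054). Its 3′ end lies opposite to Nrn1, so strand could matter here too. Tars2 and Iars2 had 1 call higher each, 0.53 at 60 min of IL-1β and 0.35 at 15 min of TNF-α. Pars2 was called higher at 120 min of IL-1β on 25 counts against the 12 given above, with overlapping groups and no call without the 2 libraries with more detected genes. Aars2, Cars2, Ears2, Hars2, Mars2, Nars2, Rars2, Sars2, Vars2 and Wars2 had no call in these 10 comparisons. In total the 16 genes had 0 to 2 calls in either direction per comparison, and none at 360 min of either stimulus. Of all genes 7.12 to 14.3% were called higher and 10.8 to 16.2% lower per comparison. The calls among the 16 genes were near or below those shares, and most of these genes have few counts, which limits calls. Differences of Nars2, Sars2, Cars2, Aars2 and Pars2, with medians of 4.75 to 8.13 CPM per library, ranged from -0.89 to 1.58 over the 10 comparisons.

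The lower concentrations were tested over the 5 times together. At 25 µM 7 of 36 members were called under IL-1β and 7 under TNF-α (all genes 28.7% and 23.8%), and at 50 µM 10 and 9 (all genes 40% and 35.9%). Farsa and Eprs were called in all 4 tests, Farsa under every setting run and Eprs in all but 25 µM of TNF-α without the libraries numbered 2 or 3, Farsa with mean differences of -0.20 to -0.27 and Eprs with 0.12 to 0.17. Yars2 was called in 3, with -0.21 and -0.44 at 25 and 50 µM under IL-1β and -0.36 at 50 µM under TNF-α. Fars2 was called in 3, by 0.32 to 0.47. Sars was called under IL-1β, with mean differences of 0.17 at 25 µM and 0.22 at 50 µM.

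Farsa stepped down with concentration at 360 min. Its group means were 177 ± 7.69, 152 ± 13.9, 134 ± 11.8 and 116 ± 9.33 CPM (SD, n = 4) at 0, 25, 50 and 100 µM under IL-1β, and 143 ± 10.3, 134 ± 7.47, 125 ± 10.9 and 111 ± 3.27 CPM under TNF-α. Neighbouring steps overlapped in places, with differences from 0 µM under IL-1β of -0.22, -0.39 and -0.60 (SE 0.09 each). Wars had a different order under IL-1β, 88.1 ± 6.86, 125 ± 18.7, 110 ± 19.2 and 88.5 ± 10.2 CPM, and its 4 libraries at 25 µM had 145, 135, 112 and 106 CPM, all above those without inhibitor. Its F test was called at 25 µM (mean difference 0.26, adjusted p = 5.8e-05) and at 50 µM under IL-1β (0.25) but not under TNF-α. Gars and Tars at 360 min of TNF-α had differences of 0.04 and 0.01 at 25 µM and -0.28 each at 100 µM.

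**Figure D4:**
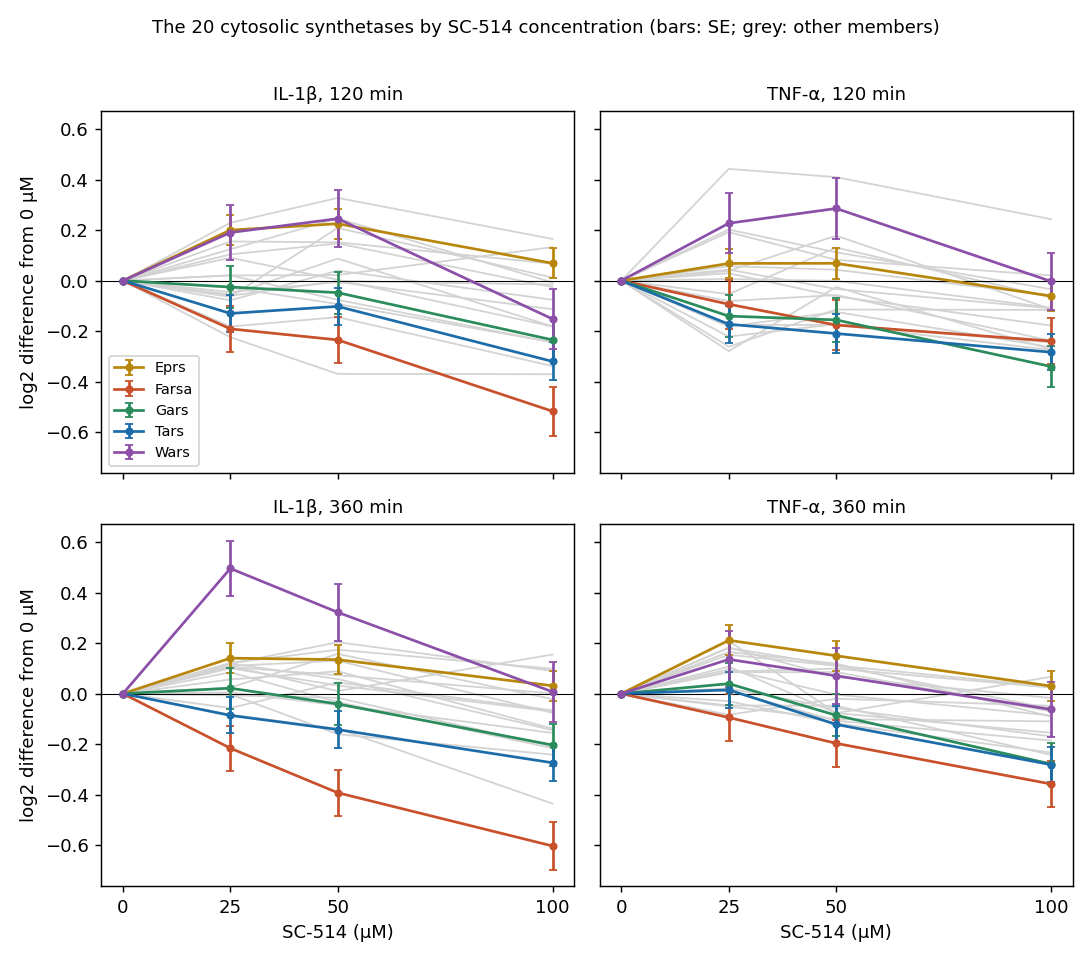
Log2 difference from 0 µM SC-514 (vertical axis) by concentration in µM (horizontal axis) for the 20 cytosolic members at 120 min (top) and 360 min (bottom) of IL-1β (left) and TNF-α (right), with 5 members in colour (bars, SE) and the others in grey. Farsa falls stepwise to -0.60 at 360 min of IL-1β, while Wars is highest at 25 µM there, at 0.50.

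The test of whether the 100 µM effect differed between the stimuli called 4.68% of all genes and 1 of 36 members, Rars. The difference averaged 0.25 over the 5 times (adjusted p = 6.1e-04) and was 0.17 to 0.34 at the single times. At 15 min of IL-1β Rars had 292, 301, 308 and 300 CPM without and 334, 318, 362 and 335 CPM with inhibitor, all higher, although the rise was not called. At 60 min of TNF-α it had 361, 337, 359 and 324 CPM without and 307, 306, 309 and 280.3 CPM with inhibitor, a log2 difference of -0.20 (adjusted p = 0.023), and this call was kept in 3 of 10 other settings and lost, among others, without the libraries of any 1 number and with RLE size factors (-0.13, adjusted p = 0.15). DESeq2 and the fit without the libraries numbered 4 did not call the difference between stimuli. The test uses the 2 libraries with more detected genes and is not given without only those. It was kept without all libraries numbered 1, which include them. For the other 35 members a p that misses the threshold does not show that the effects were alike.

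In the ATF4 list Ddit3 rose at 15, 30, 60 and 120 min in both stimuli, by 1.78, 1.71, 1.33 and 1.34 under IL-1β and 1.11, 1.08, 0.99 and 0.69 under TNF-α, and Trib3 in the same 8 comparisons, by 0.49 to 1.14. Asns was called in none of the 10, with differences of -0.06 to 0.12, and Atf4 rose in 5 and fell in 1. The 28 genes of the list had 7 to 11 rises and 1 to 4 falls at 15 to 120 min. Of all genes 7.12 to 14.3% rose and 10.8 to 16.2% fell in those 8 comparisons. At 360 min 13.9% rose and 15.7% fell under IL-1β, and 11.4% and 15.4% under TNF-α. At 360 min 3 rose and 7 fell under IL-1β and 2 rose and 8 fell under TNF-α, and with RLE size factors the order turned, with 7 and 4 and with 6 and 3. Of the non-enzymatic subunits of the multi-synthetase complex, Eef1e1 was lower in 10 of 10 comparisons and called in 7 (4 with RLE size factors), by up to -0.80 at 120 min of IL-1β, and Aimp1 was called once, 0.21 higher at 120 min of TNF-α. Of 10 mitochondrial translation factors, 0 or 1 was called in either direction per inhibitor comparison, near or below the shares of all genes given above. Of 8 other genes of tRNA charging 0 to 3 rose and none fell.

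Members were also compared with each other across the 41 group means. The median Pearson correlation of log2 levels was 0.27 over 190 cytosolic pairs, 0.02 over 320 mixed pairs and 0.01 over 120 mitochondrial pairs. The points share libraries, scaling and groups, and the mitochondrial genes have fewer counts, so this is a description only.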

How the data were processed

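TagSeq counts per gene were analysed for 164 libraries. Per the labels the libraries are 41 groups of 4, and each library is described by 4 of the 656 sample records, so the library was the unit of every test. The deposited counts were made by the authors with Bowtie2 on GRCm38 (mm10), per the submitters' processing notes, and the counting tool, with its annotation and use of strand, is not given in the sources used here. The table's 22070 Ensembl identifiers were matched to symbols for 21858, positions are those of GENCODE M21, and promoters those of RefSeq GRCm38.p6.

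Genes passing filterByExpr (10766) were scaled with TMM factors and fitted in 1 robust edgeR 4.0.16 quasi-likelihood model over all groups (R 4.3.3, 123 residual degrees of freedom). The fit was tried on simulated data in 1 comparison, where recovery was required only of changes wider than those of the members. P-values were adjusted by Benjamini-Hochberg within each of 26 comparisons, with a threshold of 0.05. CPM were scaled in the same way. All 164 libraries were kept, and 0 pairs within groups were identical. The p-values and CPM rest on all of them unless another setting is named.

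Members, gene lists, motifs and the rule for named genes were chosen with earlier results of these data known. The rule names members that were called, averaged 5 CPM or more in the group where they were higher and had 2 groups of libraries that did not overlap, and always Aars, Gars, Nars, Wars, Sars, Yars and Lars2, with Atf4, Ddit3, Asns and Trib3 among other genes. Members that were called without meeting it, and uncalled ones, were named to account for all 36, after their values were seen. Alternatives were other size factors, no filter, DESeq2 1.42.0, a library-number block, and leaving out libraries. DESeq2 used size factors of the RLE kind over all libraries, so it repeats that scaling choice.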

Additional observations from a re-analysis of the deposited data

Results flagged for a closer look

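In 61 pairs of a named gene and a group of 4 libraries, the gap between the highest or lowest library and its nearest neighbour was set against the whole range of the group. In 8 of them this ratio was above the critical value of Dixon's test for 4 samples, and chance alone puts about 1 group in 20 past it. Low libraries were those of Gars at 438 CPM and Wars at 77.9 CPM at 360 min of IL-1β without inhibitor, Sars at 363 CPM without stimulus, and Farsb at 84.0 CPM and Rars at 280.3 CPM at 60 min of TNF-α with 100 µM SC-514. High libraries were those of Gars at 443 CPM at 360 min of TNF-α with 100 µM, Yars at 117 CPM without stimulus and Farsa at 180 CPM at 15 min of IL-1β without inhibitor. One member, Rars, had a 100 µM effect that differed between the stimuli, by 0.25 on the log2 scale as the mean of 5 times (IL-1β minus TNF-α, adjusted p = 6.1e-04 in the edgeR quasi-likelihood test).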

How the results depend on the processing

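Counts of members called in the 26 comparisons were recomputed under 10 settings, and under 1 more for the 2 comparisons it touches. Of 262 recomputed counts, 64 moved by over 1.5 times, and no named call changed direction. Of 57 named calls 22 were kept under every setting, 40 with RLE size factors, 44 without the filter on low counts and 29 with DESeq2. Leaving out the 2 shallow libraries kept 56, with RLE factors too. The median of all genes moved by -0.06 to 0.12 on the log2 scale with RLE factors and by -0.01 to 0.01 when these were computed without the shallow libraries, a setting chosen after seeing the data.

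In the order IL-1β 30, 120 and 360 min against unstimulated, counts were 1, 2 and 6. RLE factors gave 0 and 2 at 30 and 360 min, RLE without the shallow libraries 0 at 30 min, no filter 3 at 360 min, and DESeq2 0, 1 and 2. For 100 µM SC-514 at 15, 30, 60, 120 and 360 min counts were 5, 5, 6, 11 and 5 under IL-1β and 6, 3, 5, 9 and 6 under TNF-α. RLE factors gave 2, 5 and 3 at 15, 30 and 360 min of TNF-α, no filter 3, 3, 4 and 3 at 15, 60, 120 and 360 min of TNF-α, and DESeq2 2 at 30 and 360 min of IL-1β and 2, 2, 3 and 2 at 15, 60, 120 and 360 min of TNF-α. Without the 2 libraries with more detected genes, a setting also chosen after seeing the data, counts were 8 at 120 min and 2 at 360 min of IL-1β. At 25 µM of TNF-α the count of 7 became 11 with RLE factors. The count for IL-1β against TNF-α was 3, 1 without the filter and 0 with DESeq2, and the difference of the 100 µM effect went from 1 to 0 with DESeq2.

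Leaving out the libraries of each number in turn gave 0 at 30 min, 0 to 2 at 120 min and 1 to 7 at 360 min of IL-1β, and 2 to 3 at 360 min of TNF-α, against unstimulated. For 100 µM it gave 3 to 5, 1 to 6, 3 to 6, 7 to 11 and 3 to 6 over the 5 times of IL-1β, and 2 to 4, 2 to 3, 2 to 3, 6 to 9 and 3 to 6 over those of TNF-α. For 25 and 50 µM over 5 times it gave 4 to 7 and 7 to 10 under IL-1β and 4 and 4 to 8 under TNF-α, and for IL-1β against TNF-α 0 to 4 and for the difference of effects 0 to 1.

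With the library number as a replicate block the counts that moved were 8 at 15 min of IL-1β with 100 µM, 12 and 14 at 25 and 50 µM of TNF-α and 6 for IL-1β against TNF-α, and all 57 named calls held. Over the 10 comparisons of 100 with 0 µM the block gave 10 calls lower for Tars in place of 6, 5 for Lars in place of 2 and 6 for Vars in place of 4. In 0 of 20 comparisons did all 4 pairs of same-numbered libraries deviate together with a correlation over 0.1. The numbers were therefore not taken as pairs in the main fit. These 20 include the comparisons with the unstimulated libraries, which the block leaves out. Yet 68 of 79 IL-1β and 72 of 79 TNF-α libraries were closest to others of their own number. The main fit leaves this likeness within a number unmodelled. Depth limits the members with the fewest counts, such as Pars2, called at 120 min of IL-1β on 31 counts against 12.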
